A study of Homo sapiens with 102 samples.

Results

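The genes described here code for nuclear-encoded subunits of the mitochondrial respiratory chain and of ATP synthase. They were chosen by symbol, as the entries of the count table whose Ensembl identifier maps to 1 of 59 listed names, and all 59 were among the 24965 genes of the table. By complex they comprised 26 subunits of complex I, 2 of complex II, 9 of complex III, 11 of complex IV and 11 of complex V. The rule itself uses no measured value, but earlier results of these data were known when the members were chosen.

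The study used Combi-Seq, in which K562 cells are enclosed in picolitre droplets with pairs of drugs and barcode fragments, so that reads of pooled cells can be assigned to a drug pair afterwards. K562 is an established human line from a myelogenous leukaemia with a BCR-ABL fusion gene, and all cells, controls included, were incubated for 12 h. Each library has a first-listed and a second-listed drug out of 4 options, which are DMSO (the solvent), Imatinib (which inhibits the kinase made by that fusion), Trametinib (a MEK inhibitor) and YM115, the spelling of the labels for the compound that the study calls YM155. The 16 ordered pairs were made in 3 runs in the dT screen and in 3 runs in the Bio screen, in which the barcode fragments were swapped between the drug sources, and each run had a separate DMSO control (3 per screen). The groups used are therefore the ordered pairs named by their drugs, such as Imatinib_DMSO, the libraries with or without a given drug in either position, and the separate DMSO controls. Doses are not part of the labels and are not given here. Every group is the same single cell line, and a library holds the summed RNA of a pool of cells, so that fewer cells and less RNA per cell cannot be told apart.

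Complexes I to IV pass electrons from NADH and succinate to oxygen. Complexes I, III and IV also pump protons across the inner mitochondrial membrane, and complex V, ATP synthase, uses the proton gradient to make ATP. Complexes I, III, IV and V are mosaics of some subunits encoded by mitochondrial DNA and many that are encoded in the nucleus. The latter are translated in the cytosol and imported. Complex II is encoded in the nucleus alone. The messages of many of the small nuclear subunits are short and belong to the abundant housekeeping transcripts of proliferating cells.

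All 48 in-screen dT libraries and 44 of 48 in-screen Bio libraries had 1000 or more genes with a count and no more than 15% of their counts in the 29 MT- genes, and only these were used, while the 6 separate controls were exempt from this limit. The 4 libraries left out were the 3 Bio Imatinib_Imatinib libraries and DMSO_Trametinib of Bio run 1. Total counts of the libraries that passed ranged from 127042 to 759756 in dT and from 81806 to 780143 in Bio. The separate controls stood apart from the in-screen libraries, with 10.2% to 36.9% of counts from MT- genes in dT and 5.10% to 28.1% in Bio, and the 3 Bio controls held only 35742 to 89347 counts. All 15 K562 marker genes had counts and together took a median of 3.87% of dT and 2.97% of Bio counts, whereas markers of other cell types had a median of 0% and reached at most 0.0666% and 0.198%.

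The 59 genes together took 3.40% ± 0.586 (SD, n = 48 libraries) of all counts in the dT screen, with a range of 2.41% to 5.14%. In the Bio screen the share was 3.20% ± 0.703 (SD, n = 44), between 1.74% and 4.56%. Detection was uneven, as a dT library held counts for 35.7 ± 5.05 (SD) of the 59 genes and a Bio library for 24.6 ± 5.98 (SD). The mean log2 CPM (CPM being counts scaled to a common library total, prior count 2) over the 59 genes was 6.09 ± 0.36 in dT and 5.18 ± 0.483 in Bio (SD). The number of members detected followed depth (Pearson r with log10 total counts 0.722 in dT and 0.629 in Bio, libraries of both screens sharing runs and drug pairs).

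A few subunits carried most of this share. COX5B, a nuclear subunit of cytochrome c oxidase (complex IV), held 18.2% of the members' counts over both screens. UQCRQ, a small subunit of the cytochrome bc1 complex (complex III), held 12.8%, and COX6B1, which sits on the intermembrane face of complex IV, held 11.6%. These 3 genes thus accounted for 42.6% of the members' counts, and the 11 most counted genes for 79.8%. By complex, the members' counts in dT split into 33.7% ± 5.60 for complex I, 0.0764% ± 0.203 for complex II, 20.2% ± 4.89 for complex III, 35.9% ± 5.44 for complex IV and 10.2% ± 2.90 for complex V (SD, n = 48). The split in Bio was alike in order, with 30.6% ± 7.79, 0.000628% ± 0.00259, 18.7% ± 7.32, 39.5% ± 11.6 and 11.2% ± 6.09 (SD, n = 44).

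The levels of COX5B in the 48 dT libraries ran from 2673 CPM through a median of 5795 CPM to 10787 CPM, and in the 44 Bio libraries from 1703 through 6298 to 15399 CPM. UQCRQ ran from 1381 through 4252 to 10184 CPM in dT and from 0 through 4294 to 8951 CPM in Bio. COX6B1 lay between 1283 and 9538 CPM in dT and between 314 and 8772 CPM in Bio. COX5B and COX6B1 had counts in 92 of 92 libraries and UQCRQ in 91. Within complex I, NDUFS6 and NDUFB10 had the highest means over both screens, with medians of 1687 and 1536 CPM in dT and 1809 and 918 CPM in Bio. Of complex V, ATP5F1E, the epsilon subunit of the ATP synthase rotor, had a mean of 1630 CPM in dT and 2166 CPM in Bio. ATP5F1B, the catalytic beta subunit, had 712 and 318 CPM, and in Bio was below ATP5MC2 at 393 CPM. UQCR10 was the second subunit of complex III, with a mean of 1599 CPM in dT and 1100 CPM in Bio.

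At the other end, 23 members had counts in under 50% of the dT libraries and 33 in under 50% of the Bio libraries. Complex II was close to the floor, since its iron-sulfur subunit SDHB had counts in 9 of 48 dT libraries (highest 312 CPM) and 2 of 44 Bio libraries (highest 3.37 CPM), and its membrane anchor SDHC in 11 and 1. NDUFA8 and NDUFB3, accessory subunits of complex I, had no count in any of the 44 Bio libraries. Where a sparse member did have counts, they could come mostly from few libraries, as 1 library held 38.1% of the summed CPM of SDHB in dT (350 counts in all). Per kilobase of coding sequence the highest levels over both screens were 16993 for UQCRQ, 15871 for COX5B, 14896 for COX6B1 and 12329 for ATP5F1E, in CPM per kb, and the lowest 0.209 for NDUFA9. The libraries were made from transcript 3′ ends, where counts need not scale with length, and division by a short coding sequence raises genes such as ATP5F1E, so that the order between genes depends on the scale. In CPM, the dT means of UQCRQ and COX6B1 were 4371 ± 1587 and 3801 ± 1886 (SD), so these neighbours differ by less than their spread over libraries. Across the 59 genes, the order of mean CPM in dT and in Bio was similar (Spearman rho = 0.954), and in-screen means ranked like those of the separate controls (rho = 0.884 in dT). The plot of levels per coding kilobase shows the span of all members and their agreement between screens.

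**Figure D1:**
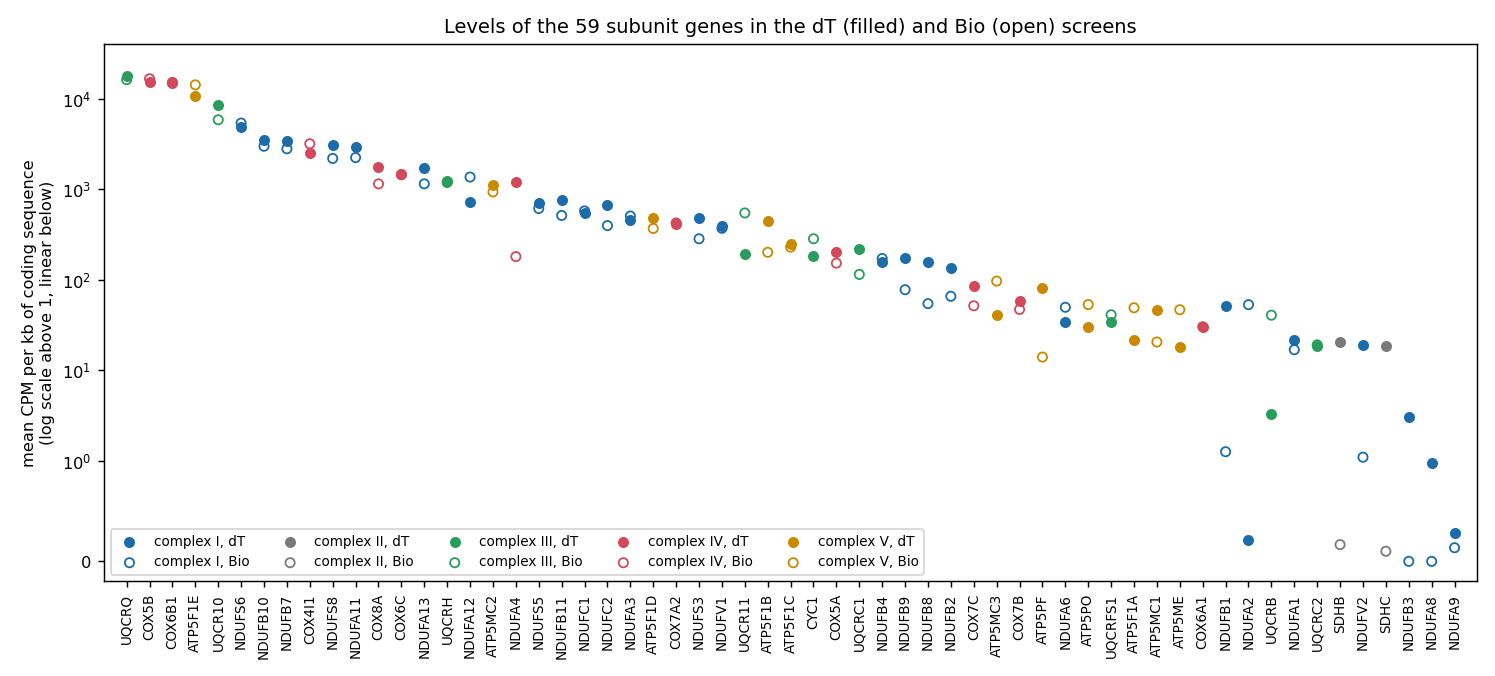
Mean CPM per kilobase of coding sequence (vertical axis, logarithmic above 1 and linear below) of the 59 subunit genes, ordered by the mean over both screens, for 48 dT libraries (filled) and 44 Bio libraries (open), coloured by complex. UQCRQ, COX5B, COX6B1 and ATP5F1E are the highest, at 12329 to 16993 over both screens, and the complex II genes SDHB and SDHC lie near the low end.

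Library-to-library variation of the members was far above counting error. The chi-square per degree of freedom of a member's counts against its mean share had a median of 81.0 over 52 members with at least 100 counts in dT and of 157 over 49 members in Bio, where pure counting gives 1. Other genes with as many counts had medians of 94.3 and 175. Among these members, 806 values were 0 in dT where counting alone predicts 13, and 1095 in Bio where it predicts 29.5. A count of 0 for a member in a single library was thus common even for genes with high counts elsewhere. Reads were not described as collapsed by molecular identifiers, so that any limit from counts covers counting error only.

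The subunit c of ATP synthase illustrates how unevenly near-equivalent genes were counted. ATP5MC1, ATP5MC2 and ATP5MC3 code for the same mature peptide, copies of which form the ring of the rotor. ATP5MC2 supplied 92.7% of the counts of the 3 genes in dT (7833 counts, against 301 for ATP5MC1 and 319 for ATP5MC3) and 91.2% in Bio (4396, against 74 and 349). In the separate controls its share was 76.5% in dT (339 of their counts) and 78.8% in Bio (26 counts). ATP5MC2 was the main source of subunit c reads in each of these sets of libraries.

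The library preparation cut cDNA bound to beads with the restriction enzyme MseI, which recognises TTAA, before amplification. The barcoded PCR primer, which carried a biotin for purification, itself holds a TTAA near the biotin. The supernatant of the digestion was purified and amplified. Because TTAA also occurs within transcripts, the sites of the members' transcripts were counted after the levels had been seen (GENCODE release 29, GRCh38, 1 principal transcript per gene). Examples of sites inside coding exons are printed below, with 13 bases on either side and the site in capitals, read on the gene's strand. SDHB, UQCRC2, NDUFA8, NDUFV2 and ATP5PO are members of low level that carry such a site, and UQCRH and ATP5F1B are among those of higher level that also do.
SDHB (chr1:17033104-17033133, minus strand): ggtattggatgctTTAAtcaagattaagaa
UQCRC2 (chr16:21957253-21957282, plus strand): gttgcccccaaagTTAAagccacagctgcg
NDUFA8 (chr9:122152370-122152399, minus strand): agttctgctgtgcTTAAagctgcggcccat
NDUFV2 (chr18:9134263-9134292, plus strand): tacaagcaggcctTTAAtttatattgaact
ATP5PO (chr21:33909134-33909163, minus strand): gtgaagcgttccaTTAAagtgaaaagccta
UQCRH (chr1:46316555-46316584, plus strand): gcccacaaactctTTAAcaacttgaaataa
ATP5F1B (chr12:56643524-56643553, minus strand): actgatcatggagTTAAtcaacaatgtcgc

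Members without a TTAA in the coding sequence were counted more. The 31 such genes had a median of 350 CPM in dT and 275 CPM in Bio, and the 28 genes with 1 or more had 25.8 and 33.8 CPM. Per kilobase of coding sequence the medians were 761 against 45.9 CPM per kb in dT and 573 against 50.4 CPM per kb in Bio. Over all protein-coding genes of the table the same split gave medians of 6.61 CPM for 4312 genes without and 4.41 CPM for 10570 genes with a site in dT, and 2.78 and 0.718 CPM in Bio. The direction was thus shared with other genes and the ratio of medians was larger among the members. The separate controls gave 306 against 52.2 CPM in dT and 257 against 28.0 CPM in Bio.

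Over the whole transcript, the 8 members with no TTAA had a median of 1579 CPM in dT and 1258 CPM in Bio. These are UQCRQ, COX6B1, NDUFS8, NDUFB10, NDUFB7, NDUFA11, NDUFV1 and NDUFS3, all 8 with counts in at least 50% of the libraries of both screens. The 20 members with 5 or more sites had medians of 21.4 and 29.7 CPM and 7 and 2 of them were detected that often. Spearman's rho of the mean CPM with the number of sites across the 59 genes was -0.522 in dT and -0.491 in Bio. With the fewest sites over all basic transcripts of a gene it was -0.539 and -0.501, with coding sites -0.484 and -0.462, and with sites per kilobase it was -0.570 in dT. Over 13773 protein-coding genes rho was -0.102 in dT and -0.129 in Bio. Among the 59 genes the mean CPM also varied with GC content (rho = 0.408 in dT) and with transcript length (rho = -0.178), which move with the number of sites. These are descriptions across genes that share their libraries, 4 ways of counting sites were computed, and the part of the digestion in the levels was not tested. Exceptions to the split by coding sites occurred on either side. COX4I1 of complex IV, with 1 coding site, had a mean of 1261 CPM in dT. SDHC and the complex I subunit NDUFA2, without a coding site, had counts in 11 and 1 of 48 dT libraries. Their whole transcripts, however, held 103 and 3 sites.

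**Figure D2:**
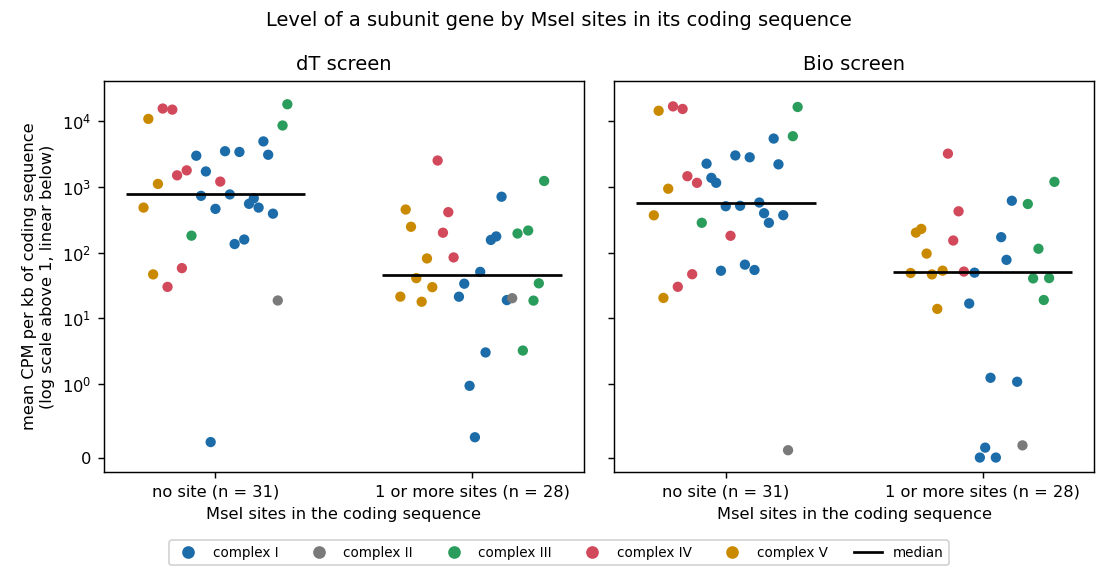
Mean CPM per kilobase of coding sequence (vertical axis, logarithmic above 1 and linear below) of members with no MseI site in the coding sequence (31 genes) and with 1 or more (28 genes), in the dT (left) and Bio (right) screens. Each point is a gene, coloured by complex, and lines are medians, which are 761 and 45.9 in dT and 573 and 50.4 in Bio.

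Promoter windows of 300 bases (RefSeq, GRCh38.p14, 250 bases before to 50 after the start) were matched for 50 of the 59 genes. The core of the site of NRF1, a transcription factor known for its role at genes of the respiratory chain, was searched as GCGCATGC on both strands, where it reads GCATGCGC in reverse, and was in 11 of the 50 windows (22%) against 3.27% of 27305 promoters. The ETS core CCGGAAG was in 15 (30% against 10.7%), the YY1 core AAGATGGC in 7 (14.0% against 3.03%), and the Sp1 core GGGCGG in 31 (62.0% against 44.6%). CCAAT was in 16 (32.0% against 35.7%) and TATAAA in 5 (10.0% against 12.0%). Such matches are descriptions of letters and not of binding. NRF1 cores were present in members from both ends of the range of levels, as in the windows below, with the core in capitals and read on the gene's strand.
COX5B (chr2:97645915-97645944, plus strand): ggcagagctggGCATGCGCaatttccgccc
NDUFS6 (chr5:1801350-1801379, plus strand): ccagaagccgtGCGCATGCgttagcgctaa
NDUFA6 (chr22:42090920-42090949, minus strand): tctgtagatgaGCATGCGCagcacccaccg
SDHB (chr1:17054214-17054243, minus strand): aagccaaatggGCATGCGCcgctactgcgc

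The members' mean share of counts varied between drug pairs. Among pairs that passed, its mean was lowest in DMSO_DMSO in both screens, with 2.64%, 2.45% and 2.41% in the 3 dT runs and 2.44%, 1.85% and 2.47% in the 3 Bio runs. In dT the mean was highest in Imatinib_YM115, with 3.90%, 4.21% and 5.14%. In Bio the highest mean was that of YM115_Trametinib, with 3.37%, 3.74% and 4.29%. Neither overlapped DMSO_DMSO of its screen. The highest and lowest means were picked from these same values, so the lack of overlap does not test a difference. Over the 15 ordered pairs with libraries in both screens, the mean shares of dT and Bio had r = 0.595 and rho = 0.407, and r = 0.493 without the 2 pairs farthest from the median. The pairs share their drugs, and depth differed between them.

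Libraries with YM115 had the higher share in both screens. In dT it was 3.62% ± 0.560 with (n = 21) and 3.23% ± 0.559 without YM115 (SD, n = 27), and in Bio 3.54% ± 0.648 (n = 21) and 2.89% ± 0.613 (SD, n = 23). In a fit with the 3 drugs and run, the differences were 0.545 percentage points in dT and 0.751 in Bio. Those of Imatinib were 0.521 and 0.157, and those of Trametinib 0.0707 and 0.228 percentage points. Without the 3 DMSO_DMSO libraries, the YM115 differences were 0.388 and 0.557 percentage points, Imatinib had 0.364 and -0.0114, and Trametinib had -0.0864 and 0.0413. With each member weighted equally, as the mean log2 CPM, YM115 gave 0.414 in dT and 0.613 in Bio. Trametinib gave 0.274 and 0.278, and Imatinib 0.0662 and 0.0167. The fitted number of detected members was also higher with YM115, by 5.38 genes in dT and 6.60 genes in Bio. With Trametinib it was higher by 4.11 and 4.04 genes, and with Imatinib by 0.444 and 0.878. Detection followed depth, whose part in these differences was not tested. K562 markers moved with YM115 too. Their summed share ran from 3.09% through a median of 4.50% to 8.66% with and from 1.31% through 3.17% to 5.88% without YM115 in dT, and from 2.03% through 3.33% to 5.67% and from 0.912% through 2.37% to 4.42% in Bio. Of the 15 markers 11 were tested in dT and 8 in Bio. With YM115 8 had positive and 3 negative estimates in dT, and 4 had positive and 4 negative ones in Bio. HBG2, a fetal globin gene, rose in dT (0.58 ± 0.083 SE on the log2 scale, adjusted p = 6.1e-06) and in Bio (0.75 ± 0.12, 0.00027). HBG2 held most of the marker counts, with 642036 in dT and 330651 in Bio, where HBZ, the next, had 19013 and 10947. The summed share is thus mainly that of 1 gene. ALAS2, an enzyme of haem synthesis, fell in Bio by 6.06 (SE 1.69, adjusted p = 0.034), detected in 4 of the 21 YM115 libraries and in 8 of the other 23. With the marker counts taken out of the denominator the members' share was 3.82% with and 3.35% without YM115 in dT and 3.68% and 2.97% in Bio. The ranges of the shares with and without each drug overlap, and no test was made of a sum over the members.

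By complex, the YM115 difference in dT was 0.162 percentage points for complex I, 0.219 for complex III, 0.191 for complex IV and -0.0292 for complex V. In Bio the differences were 0.189, 0.202, 0.333 and 0.0262 in the same order. Complexes I, III and IV had positive fitted differences in both screens, and complex V did not.

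The MT- genes, which hold the 13 messages of the mitochondrial genome and its ribosomal RNAs, took 4.57% ± 0.988 of dT and 4.70% ± 1.21 of Bio counts (SD). The members' share and the MT- share went in opposite directions across libraries. In dT r was -0.544 and rho -0.515 (n = 48), and r was -0.480 without the 2 libraries farthest from the median MT- share. Within runs 1, 2 and 3 of dT r was -0.482, -0.647 and -0.850 (n = 16 each). In Bio r was -0.426 and rho -0.420 (n = 44), -0.466 without the 2 farthest, and -0.251, -0.535 and -0.467 within the runs (n = 14, 15 and 15). With the MT- counts taken out of the denominator r was -0.504 in dT and -0.379 in Bio. Within ordered pairs, after subtraction of the pair means, r was 0.135 in dT and -0.405 in Bio, and across pair means it was -0.761 (n = 16) and -0.685 (n = 15). With run fitted beside the ordered pair, a setting chosen after seeing the data, r within pairs was -0.390 in dT and -0.245 in Bio, so the sign of the dT value depends on whether run is taken into account. Both mean shares were higher in run 3 of dT (3.61% members and 5.04% MT-) than in runs 1 and 2. The libraries with YM115 had both the higher members' share and a lower MT- share, with 3.84% ± 0.553 with and 5.14% ± 0.869 without YM115 in dT (SD). In Bio these MT- shares were 4.42% ± 1.05 and 4.95% ± 1.31 (SD).

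**Figure D3:**
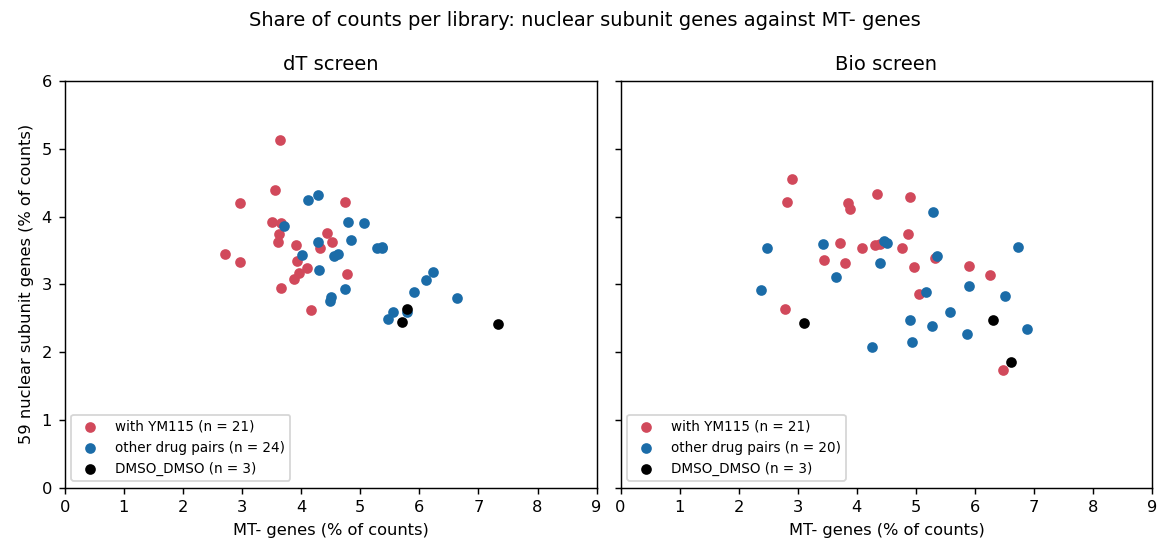
Share of counts from the 59 nuclear subunit genes (vertical axis, percent) against the share from MT- genes (horizontal axis, percent) in each library of the dT (left, 48) and Bio (right, 44) screens, with libraries with YM115 in red and DMSO_DMSO in black. The points fall from upper left to lower right, with r of -0.544 in dT and -0.426 in Bio, and the dT DMSO_DMSO libraries lie at the low right.

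To ask which members respond to a drug, each gene was fitted with 1 term per drug present in either position (edgeR's quasi-likelihood test, run as a block, Benjamini-Hochberg adjustment over all genes tested, threshold 0.05). The filter on low counts kept 47 of the 59 members in dT and 34 in Bio. In dT, Imatinib, Trametinib and YM115 had 0, 0 and 1 member past the threshold, where 2.88%, 1.37% and 2.62% of all genes tested were past it. An unadjusted p under 0.05 was found for 5, 4 and 10 members (10.6%, 8.51% and 21.3%), against 13.9%, 12.6% and 14.3% of all genes tested. In Bio the numbers were 0, 0 and 0 where 2.34%, 1.94% and 2.74% of all genes were past it, with 3, 3 and 3 members at an unadjusted p under 0.05. DESeq2 called 0, 0 and 1 members in dT and 1, 0 and 1 in Bio, given here without the share of all genes that it called.

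The member past the threshold was UQCRQ, which rose with YM115 in dT (log2 change 0.64 ± 0.14 SE, adjusted p = 0.00281). The 21 dT libraries with YM115 ran from 3038 through a median of 4995 to 10184 CPM, and the 27 without from 1381 through 3835 to 7382 CPM. The ranges overlap, but the median of the libraries with YM115 was above those without. In Bio the 21 libraries with YM115 ran from 1672 through 5080 to 8951 CPM and the 23 without from 0 through 2831 to 6677 CPM. There the fitted change was 0.58 ± 0.39 (SE), with an adjusted p of 0.49. The dT call was lost without run 3 (adjusted p = 0.118), without the filter on low counts, and with single-drug conditions only.

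The other members nearest to the threshold were mostly of low detection. For YM115 in dT they were SDHB at 4.57 ± 1.47 (SE, adjusted p = 0.0788) and NDUFA13, a complex I subunit also known as GRIM19, at 0.69 ± 0.25 (adjusted p = 0.146). For YM115 in Bio NDUFA11 had 2.96 ± 0.96 (adjusted p = 0.0796), where its dT value was 1.03 ± 0.39 (adjusted p = 0.17). For Imatinib in Bio NDUFB4 had 6.53 ± 1.98 (adjusted p = 0.0633), and for Trametinib in Bio COX5A had 3.51 ± 1.04 (adjusted p = 0.062). None of these passed. With Imatinib in dT the 3 smallest p were those of UQCRQ (0.38 ± 0.13, adjusted p = 0.136), ATP5PO (-3.76 ± 1.40, 0.165) and ATP5F1E (0.52 ± 0.21, 0.22), and with Trametinib in dT those of UQCRFS1 (5.46 ± 2.20, 0.241), UQCRC2 (-3.73 ± 1.62, 0.299) and ATP5MC1 (3.36 ± 1.60, 0.364). In Bio the next in order were UQCRFS1 (-4.42 ± 1.5, adjusted p = 0.115) and COX5A (-3.97 ± 1.59, 0.19) for Imatinib, NDUFC2 (5.65 ± 1.82, 0.0926) and CYC1 (3.52 ± 1.73, 0.388) for Trametinib, and COX5A (3.31 ± 1.27, 0.153) and NDUFC2 (3.40 ± 1.67, 0.307) for YM115. COX5A, a small subunit of complex IV, thus had estimates of opposite sign for Imatinib and the other drugs, none of them past the threshold. For genes at 0 in many libraries such fitted values are sensitive to the prior count.

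The sign of the members' estimates was mostly positive in dT and for YM115 in Bio. In dT 33, 33 and 34 of the 47 members had a positive fitted change with Imatinib, Trametinib and YM115 (70.2%, 70.2% and 72.3%, against 52.2%, 58.4% and 57.3% of all genes tested). The medians were 0.36, 0.28 and 0.48 on the log2 scale for the members and 0.07, 0.23 and 0.21 for all genes. In Bio 17, 17 and 27 of 34 were positive, with medians of 0.03, 0.03 and 0.50 against 0.12, 0.30 and 0.53 for all genes. The Bio medians were at or below those of all genes. The plot of fitted drug effects shows the spread behind these medians.

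**Figure D4:**
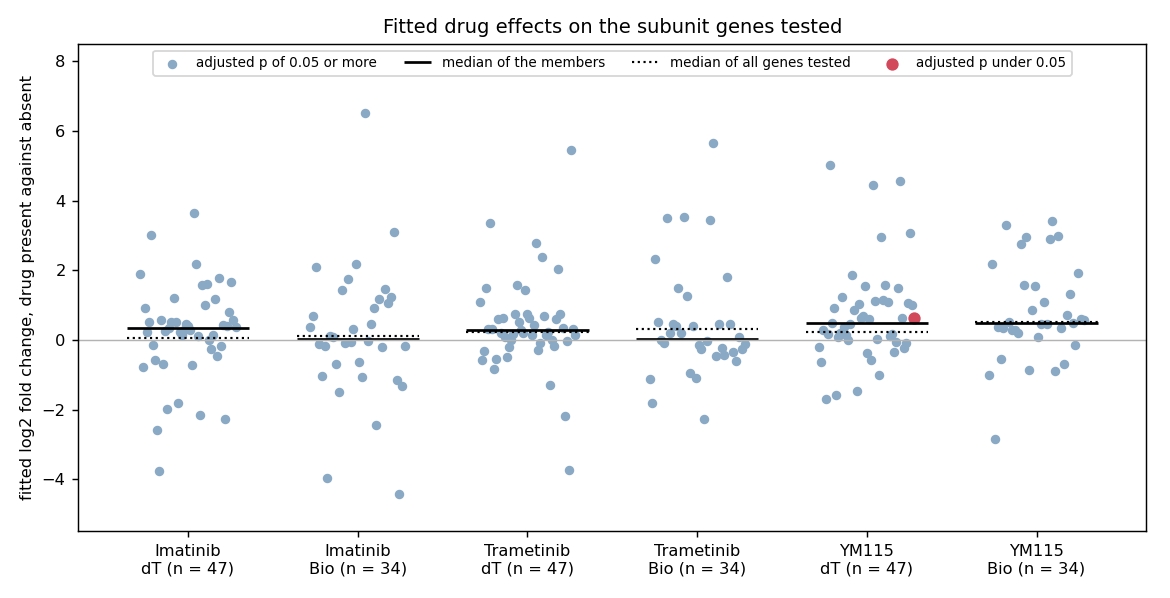
Fitted log2 fold change (vertical axis) of each subunit gene tested, with the drug present against absent, for 3 drugs in the dT (47 genes) and Bio (34 genes) screens. Solid lines are medians of the members, dotted lines medians of all genes tested, and the only point past an adjusted p of 0.05, in red, is UQCRQ with YM115 in dT at 0.64.

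Some mitochondrially encoded subunits of the same complexes fell with YM115 or Imatinib. Of 13 such genes 11 were tested in dT and 10 in Bio. MT-ND1, the complex I subunit next to the quinone site, fell by 0.80 on the log2 scale in dT (SE 0.11, adjusted p = 2.1e-06). In Bio MT-ND1 fell by 0.63 (SE 0.18, adjusted p = 0.0354). In dT its 21 libraries with YM115 ran from 2088 through 3179 to 4217 CPM and the 27 without from 3479 through 5644 to 8536 CPM. These ranges overlap only between 3479 and 4217 CPM. MT-CO3 of complex IV fell by 0.57 in dT (SE 0.092, adjusted p = 6.79e-05), and its Bio value was -0.42 ± 0.20 (SE, adjusted p = 0.292). With Imatinib in dT MT-CO1 fell by 0.32 (SE 0.093, adjusted p = 0.0436) and MT-CO2, the subunit that receives electrons from cytochrome c, fell by 0.77 (SE 0.23, adjusted p = 0.0493). In dT the calls were thus 2 of 11 lower with Imatinib, 0 of 11 with Trametinib and 2 of 11 lower with YM115. In Bio they were 0, 0 and 1 of 10. The other MT- estimates did not pass, and with YM115 in Bio 3 of 10 were positive. The Bio call of MT-ND1 held in 3 of 11 alternatives and the dT calls of MT-CO1 and MT-CO2 in 4 and 3 of 10, lost among others without the block and without the filter, whereas the dT calls of MT-ND1 and MT-CO3 held in 8 of 10.

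Few other genes of the pathway had enough counts to be tested. Of 20 further nuclear subunits 13 were tested in dT and 6 in Bio, and 2 calls were made, NDUFS1 of the complex I core with YM115 in dT (a fitted log2 change of -5.58) and ATP5MG of ATP synthase with Trametinib in Bio (7.12). NDUFS1 was detected in 2 of the 21 YM115 libraries and in 13 of the other 27. ATP5MG had counts in 3 of 20 libraries with Trametinib (mean 89.6 CPM) and in 4 of 24 without (31.2 CPM), so its call rests on few libraries. Of 49 assembly factors 15 and 3 were tested, with 1 call, ECSIT with Imatinib in Bio (-5.93), which was detected in 5 of the 18 Imatinib libraries and in 11 of the other 26. With YM115 in dT 13 of the 15 assembly factors had positive estimates (median 1.08), of which 0 passed by edgeR and 1 had an unadjusted p under 0.05. Of 15 regulators of mitochondrial gene expression 3 were tested in either screen and of 14 citric acid cycle genes 4 and 3, with 0 calls in 6 comparisons of each list by edgeR, and with 5 and 3 cases at an unadjusted p under 0.05. Of all genes tested, 12.4% to 16.0% were under 0.05 in these 6 fits.

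The ordered pairs were then compared jointly, which asks whether a member differed among them at all and gives no direction. In dT 1 of 50 members tested passed (0.303% of all genes did), and in Bio 11 of 51 (22.9% of all genes did). Without the run block the counts were 10 and 24. They are given without the share of all genes at that setting, so they are not a result about the members. The dT member was NDUFS8 (adjusted p = 1.86e-06), a subunit of complex I that carries iron-sulfur clusters close to the quinone site. The Bio members were NDUFS8 (adjusted p = 0.000669), NDUFA12, NDUFC2, ATP5F1C, ATP5F1D, ATP5MC3, ATP5PO, COX5A, CYC1, UQCRFS1 and UQCR10, of which the last 10 had adjusted p between 0.0138 and 0.0451. Their share in Bio, 21.6%, was close to that of all genes. Leaving out run 2 or run 3, or adding depth as a covariate, left 0 of them.

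NDUFS8 differed between the 2 listed orders of DMSO with Imatinib and of Imatinib with Trametinib, a pattern noticed after its values had been seen. In dT its levels were 0, 0 and 3.69 CPM in the 3 DMSO_Imatinib libraries and 8613, 8731 and 11406 CPM in the 3 Imatinib_DMSO libraries. In Bio they were 10.1, 12.4 and 21.4 CPM in DMSO_Imatinib and 3567, 4593 and 7920 CPM in Imatinib_DMSO. The same 2 drugs in opposite order thus gave the lowest and the highest dT levels of the gene among the 16 pairs, and in Bio the same order without overlap. Imatinib_Trametinib was likewise above Trametinib_Imatinib, with 2649 to 5103 against 117 to 1996 CPM in dT and 2568 to 7993 against 686 to 1457 CPM in Bio. The dT DMSO_DMSO libraries lay between, at 489, 870 and 2019 CPM, and the Bio ones were scattered, at 0, 13.6 and 5106 CPM.

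**Figure D5:**
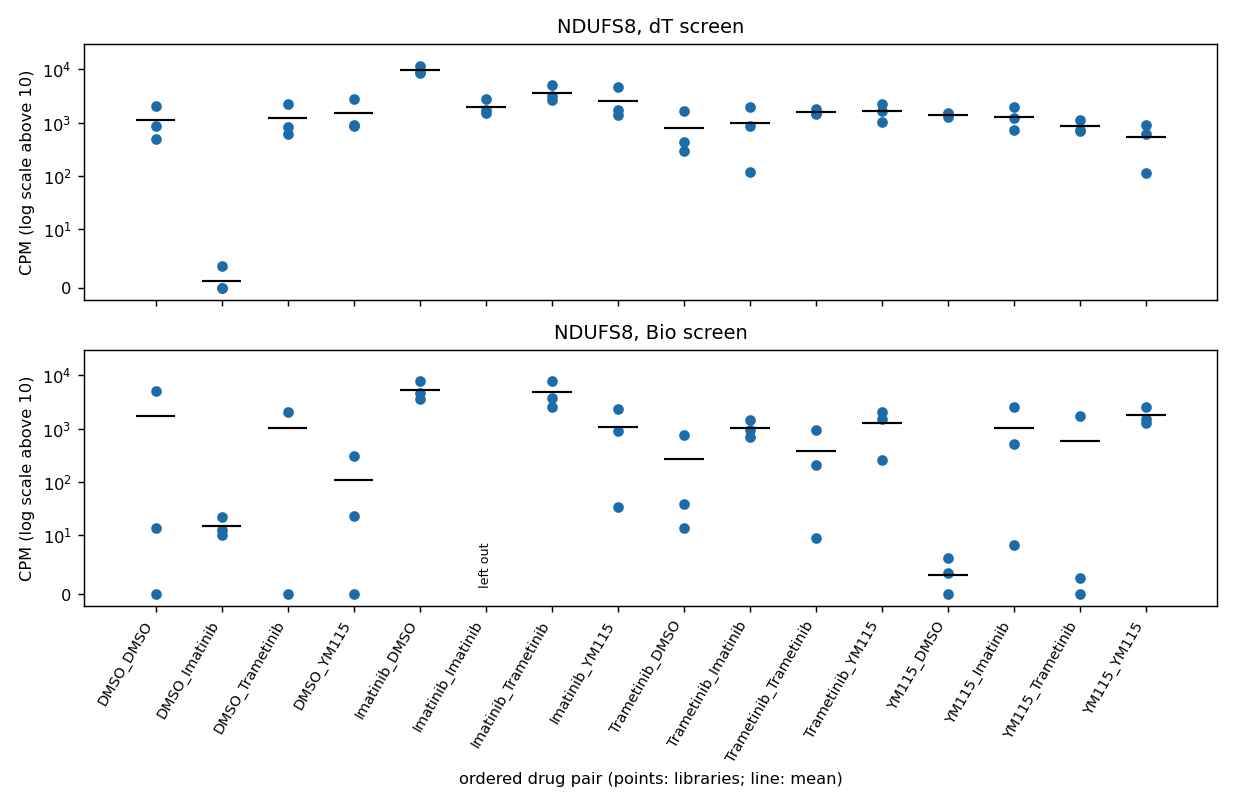
NDUFS8 level in CPM (vertical axis, logarithmic above 10 and linear below) in each library of the ordered drug pairs, for the dT (top) and Bio (bottom) screens. Points are libraries, lines are means, and Bio Imatinib_Imatinib was left out. DMSO_Imatinib lies at 0 to 3.69 CPM in dT and 10.1 to 21.4 CPM in Bio, and Imatinib_DMSO at 8613 to 11406 and 3567 to 7920 CPM.

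For each of the 6 couples of opposite orders, 46 members and 4958 genes in all had at least 100 counts in both screens. The libraries of the 2 orders did not overlap, in the same direction in both screens, for 1 member and 0.323% of genes with DMSO and Imatinib (NDUFS8), for 1 member and 0.222% with Imatinib and Trametinib (NDUFS8) and for 1 member and 1.21% with DMSO and Trametinib (ATP5F1D). With DMSO and YM115, Imatinib and YM115, and Trametinib and YM115 there were 0 members, against 0.282%, 0.242% and 0.706% of genes. ATP5F1D, the delta subunit of ATP synthase, had 0, 3.93 and 5.44 CPM in dT DMSO_Trametinib and 962, 1146 and 1158 CPM in dT Trametinib_DMSO. In Bio it was at 0 in both libraries of DMSO_Trametinib that passed and at 112, 199 and 1898 CPM in Trametinib_DMSO. Depth differed with the first-listed drug, from a mean of 198560 counts for DMSO to 456520 for YM115 in dT, and its part in these values was not tested.

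Over the 15 pairs with data in both screens, the profile of a member across pairs was not closely repeated between the screens. Among 26 members the median rho between dT and Bio was 0.143 (range -0.409 to 0.5), and among 883 other genes it was 0.125.

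A joint test of listed position, first against second for the 3 drugs, was made as well. The labels do not say which listed drug came from which injection source, so that position here means the order in the labels alone. In dT 4 of 50 members passed, where 13.9% of all genes did, namely NDUFV2 (adjusted p = 0.00368), UQCRC2 (0.0048), UQCRFS1 (0.0206) and NDUFS8 (0.0261). In Bio 2 of 34 passed, ATP5F1D (0.02) and UQCRFS1 (0.0253), where 18.4% of all genes did. The members' share was thus below that of all genes in both screens. UQCRFS1 is the Rieske iron-sulfur protein of complex III, and it was the only member past the threshold in both screens. In dT it did not pass in any of the 3 fits that each left out 1 run, and its Bio call failed without run 2, without run 3, without the filter on low counts and with depth as a covariate. The dT call of NDUFS8 and the Bio call of ATP5F1D likewise failed in all 3 such fits, that of UQCRC2 without run 2 and that of NDUFV2 without run 1. UQCRFS1 had counts in 11 of 48 dT and 11 of 44 Bio libraries.

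The separate DMSO controls, which did not pass through the screens, were set against in-screen DMSO_DMSO. In dT 0 of 53 members passed (0.116% of all genes), and in Bio 0 of 51 (0.0487%), by edgeR. An unadjusted p under 0.05 was found for 13 members in dT (24.5%, against 16.1% of all genes) and for 6 in Bio (11.8%, against 10.0%). The members' share was 3.64%, 1.22% and 3.42% in the dT controls and 3.54%, 1.11% and 0.894% in the Bio controls. In each screen 1 or more controls lay below every in-screen library that passed. More members were detected in them, 48 to 57 in dT and 34 to 50 in Bio.

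The difference of a drug's effect between the screens was tested directly in a fit of the 92 libraries. For Imatinib 0 of 50 members passed (5.84% of all genes), with 3 at an unadjusted p under 0.05 by edgeR (6%, against 21.6% of all genes). For Trametinib 1 of 50 passed (4.59% of all genes), NDUFA6, with a Bio minus dT difference in log2 change of -5.19 ± 1.21 (SE, adjusted p = 0.00741). For YM115 1 of 50 passed (6.59% of all genes), NDUFA4, a subunit of complex IV despite its name, with 6.43 ± 1.65 (SE, adjusted p = 0.0104). Both rest on sparse counts in Bio, where NDUFA6 had counts in 4 of 44 and NDUFA4 in 7 of 44 libraries. In Bio 1 library held 92.2% of the 217 counts of NDUFA6, and 1 library held 55.0% of the 763 counts of NDUFA4.

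Between the screens themselves, counts were summed per run, so that 3 dT runs stood against 3 Bio runs. There 0 of 51 members passed (0.0446% of all genes), and 3 had an unadjusted p under 0.05 by edgeR (5.88%, against 6.90% of all genes). The smallest p was that of NDUFA4, which had a dT minus Bio difference of 1.98 ± 0.58 (SE, adjusted p = 0.31).

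Counts of some members could include reads of near copies. The table holds 59 pseudogenes or near-identical copies named after 30 members, whose counts came to 0.571% of the members' counts in dT and 0.523% in Bio. ATP5F1EP2 had 2612 counts beside 27550 of ATP5F1E in dT, and UQCRHL had 285 beside 5237 of UQCRH. Whether counting used strand is not stated, so reads of NDUFA2 (268 counts) cannot be told apart from those of IK (8633 counts) on the opposite strand where they overlap, nor those of NDUFB11 (8092 counts) from RBM10 (10886 counts).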

How the data were processed

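The authors deposited whole-number read counts per Ensembl gene for 102 libraries in 1 table. Per the labels, cDNA from barcoded poly-dT primers was cut with Tn5, and the submitters' processing notes name STAR 2.4.2a and GRCh38. Other counting options are not given in the sources used here. The counts are not normalised, and 0 columns of per-sample values lacked a sample.

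Groups came from the labels. The members, lists and tests were chosen with earlier results of these data known. Counts were scaled by TMM, filtered with filterByExpr and tested with edgeR 4.0.16's quasi-likelihood test in R 4.3.3 (run as a block, Benjamini-Hochberg adjustment over all genes tested), with DESeq2 1.42.0 as an alternative, after the scripts had been tested on simulated data. Run numbers name the raw file of each replicate in the design text. Deviations of libraries of the same run correlated with a mean r of 0.0156 in dT and 0.0130 in Bio. The study describes its replicates as independent biological experiments. No 2 replicates held identical counts. Genes named are members past the threshold, the 3 smallest p per drug and screen, the 2 highest per complex, the ATP5MC genes, and companions past the threshold. NDUFS8 by order and genes named for TTAA sites or motifs were chosen after their values were seen. Alternatives were other scaling, no filter, no block, depth as covariate, MT- genes left out, single-drug conditions, and each run left out.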

Additional observations from a re-analysis of the deposited data

Results flagged for a closer look

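For 2 members the effect of a drug differed between the screens in a direct test of the difference (edgeR's quasi-likelihood test, adjusted over all genes). NDUFA6 with Trametinib had a Bio minus dT difference of -5.1894 on the log2 scale (adjusted p = 0.00741). It was detected in 5 of the 21 dT libraries that had Trametinib and in 6 of the other 27. In Bio it was detected in 0 of 20 and in 4 of 24, and 1 library held 92.2% of its Bio counts. NDUFA4 with YM115 had a difference of 6.4333 (adjusted p = 0.0104). YM115 libraries of dT held it in 20 of 21 cases and the other dT libraries in 24 of 27. In Bio these were 5 of 21 and 2 of 23, and 1 library held 55.0% of the Bio counts of NDUFA4. The calls held in 2 of 4 alternatives for NDUFA6 and in 4 of 6 for NDUFA4, and depth differed between the screens. Its part in these differences was not tested.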

How the results depend on the processing

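Of the counts of members past the threshold and the share differences by drug, 133 values under an alternative stayed near the main value and 43 did not. A count stayed if within 1.5 times the main count. A share difference stayed if it shifted by less than 1, in SDs of the libraries without the drug. No share was among the 43, but signs could change under this wide limit. Without DMSO_DMSO, Imatinib in Bio went from 0.157 to -0.0114 and Trametinib in dT from 0.0707 to -0.0864 percentage points. The cause of the changes was not tested. The counts of members below are given without the share of all genes at each setting, so they are not results about the members. Without a filter on low counts, 1 member passed for Trametinib in dT, 0 for YM115 in dT, 4 for ordered pairs in dT, 2 for YM115 in Bio, 5 for ordered pairs in Bio, 1 for position in Bio and 0 for Trametinib Bio minus dT. With log2 total count as a covariate, 1 passed for Imatinib in dT, 8 for position in dT, 2 for Imatinib, 1 for Trametinib and 1 for YM115 in Bio, 0 for ordered pairs and 4 for position in Bio. With DESeq2, 1 passed for Imatinib and 1 for YM115 in Bio, and with its size factors 2 for Trametinib Bio minus dT. With MT- genes left out, 1 passed for Trametinib in Bio. With all in-screen libraries, 2 passed for Trametinib and 1 for YM115 in Bio. With single-drug conditions only, 0 passed for YM115 in dT, and UQCRFS1 with Imatinib in Bio turned from -4.42 to 0.014. Leaving out 1 run gave 0 to 1 members for Imatinib in dT, 1 to 2 for ordered pairs and 1 for position in dT, 0 to 1 for Imatinib, Trametinib, ordered pairs and position in Bio, and 0 to 2 for each of Imatinib, Trametinib and YM115 Bio minus dT.

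Without the replicate block, 10 members passed for ordered pairs in dT and 24 in Bio. On run sums, dT against Bio, 0 passed with the replicate block and without it. Of the single genes, 253 values kept their direction and side of the threshold, 98 were no longer past it, 14 came past it and 1 reversed. In Bio 25 members and in dT 12 did not pass the filter on low counts for drug effects and were not tested.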
